A study of Mus musculus with 40 samples.

Results

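The aminoacyl-tRNA synthetases are the enzymes that load each amino acid onto its transfer RNA. The 36 genes described here were chosen by symbol as synthetase genes, with earlier results of these data known, and all 36 had a row in both deposited tables of 23480 genes. They comprise 20 genes for enzymes of the cytosol (Aars, Cars, Dars, Eprs, Farsa, Farsb, Gars, Hars, Iars, Kars, Lars, Mars, Nars, Qars, Rars, Sars, Tars, Vars, Wars and Yars) and 16 genes, with symbols ending in 2, for enzymes of the mitochondrion (Aars2, Cars2, Ears2, Fars2, Hars2, Iars2, Lars2, Mars2, Nars2, Pars2, Rars2, Sars2, Tars2, Vars2, Wars2 and Yars2). RNA was sequenced from 10 lines made from the mouse mammary tumour line 4T1, each carrying 1 short hairpin RNA (shRNA) against Slpi or Mgp, in a study of off-target effects of shRNAs from the TRC collection and of shERWOOD designs. The Slpi table held hairpin 66708 (TRC, puromycin at 1 µg/ml) and hairpins Slpi1U1, Slpi1U2, Slpi2 and Slpi4 (shERWOOD, hygromycin at 500 µg/ml). The Mgp table held hairpin 88943 (TRC, puromycin at 1 µg/ml) and hairpins Mgp1, Mgp1U1, Mgp1U3 and Mgp2 (shERWOOD, hygromycin at 500 µg/ml). The assignment of 66708 and 88943 to TRC was inferred from their catalogue-style numbers and their drug, not read from a label. Infection was at a multiplicity of 0.3 and drug selection lasted about 10 days for all lines, each had 2 libraries, and no untransduced line was analysed. The labels do not say whether the 2 libraries of a line were grown as separate cultures, and p-values therefore measure the spread between libraries alone, which could be technical. Hairpin source, target sequence, vector and drug changed together, so their effects cannot be told apart, and each TRC group is 1 hairpin.

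Each synthetase recognises 1 amino acid and its transfer RNAs, except Eprs, whose single chain serves both glutamate and proline. Cytosolic and mitochondrial translation use separate enzymes for most amino acids, all encoded in the nucleus, while Gars and Kars each make both forms from 1 gene. In mammals, 8 of the cytosolic enzymes (Dars, Eprs, Iars, Kars, Lars, Mars, Qars and Rars) sit in a multisynthetase complex with the scaffold proteins Aimp1, Aimp2 and Eef1e1. Many cytosolic synthetase genes are reported targets of ATF4, the transcription factor whose translation rises when the initiation factor eIF2 is phosphorylated during amino acid shortage or endoplasmic reticulum stress. The 12 genes treated here as reported ATF4 targets were Aars, Cars, Eprs, Gars, Iars, Lars, Mars, Nars, Sars, Tars, Wars and Yars, and the other 8 cytosolic genes were Dars, Farsa, Farsb, Hars, Kars, Qars, Rars and Vars. This split was drawn from textbook knowledge with earlier results of these data known, so it is not independent of them.

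ATF4 binds, with C/EBP partners, an element whose core is written TGATGNAA. Promoters that hold this core are shown because the genes concerned were among those that moved together below. RefSeq promoter windows (GRCm38.p6, from 250 bases before to 50 bases after the gene's start) matched 27 of the 36 genes, 13 cytosolic and 14 mitochondrial. The core, searched on both strands, was present in the windows of 5 cytosolic genes and no mitochondrial gene, and in 3.97% of all 32851 windows. All 5 were reported ATF4 targets, of which 8 had a window. Eprs, Mars and Sars had a window without the core, and Mars and Sars moved below as the 5 did. Cars, Lars, Nars and Wars had no matching window. The part of the core in the results was not tested. The 5 windows are printed 5′ to 3′ on the gene's strand, with each match to the core, or to its reverse complement TTNCATCA, in capitals.
Aars, chr8:111033592-111033891, plus strand: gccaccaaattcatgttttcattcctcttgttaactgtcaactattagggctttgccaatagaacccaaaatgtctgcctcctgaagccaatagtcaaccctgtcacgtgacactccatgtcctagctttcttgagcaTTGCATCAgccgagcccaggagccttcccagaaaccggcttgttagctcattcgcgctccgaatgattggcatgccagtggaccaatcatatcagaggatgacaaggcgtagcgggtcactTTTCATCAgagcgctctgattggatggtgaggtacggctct
Iars, chr13:49681880-49682179, plus strand: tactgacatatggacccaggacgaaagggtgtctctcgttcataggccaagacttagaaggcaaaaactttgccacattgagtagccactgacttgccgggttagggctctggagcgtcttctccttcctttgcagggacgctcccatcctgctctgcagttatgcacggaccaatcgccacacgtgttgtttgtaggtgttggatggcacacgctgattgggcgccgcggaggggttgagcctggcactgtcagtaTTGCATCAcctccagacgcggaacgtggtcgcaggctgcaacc
Yars, chr4:129189653-129189952, plus strand: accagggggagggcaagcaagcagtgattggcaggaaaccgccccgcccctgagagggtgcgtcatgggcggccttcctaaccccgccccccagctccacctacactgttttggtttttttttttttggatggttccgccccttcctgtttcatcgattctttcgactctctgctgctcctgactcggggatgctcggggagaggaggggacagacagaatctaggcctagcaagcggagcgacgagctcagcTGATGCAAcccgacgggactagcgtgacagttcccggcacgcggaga
Tars, chr15:11399609-11399908, minus strand: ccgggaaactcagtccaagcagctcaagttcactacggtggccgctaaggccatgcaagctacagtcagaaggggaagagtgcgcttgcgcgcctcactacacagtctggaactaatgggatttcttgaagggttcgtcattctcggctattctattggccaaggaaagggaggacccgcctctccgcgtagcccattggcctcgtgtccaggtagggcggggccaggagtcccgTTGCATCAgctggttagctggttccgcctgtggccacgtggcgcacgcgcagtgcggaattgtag
Gars, chr6:55037751-55038050, plus strand: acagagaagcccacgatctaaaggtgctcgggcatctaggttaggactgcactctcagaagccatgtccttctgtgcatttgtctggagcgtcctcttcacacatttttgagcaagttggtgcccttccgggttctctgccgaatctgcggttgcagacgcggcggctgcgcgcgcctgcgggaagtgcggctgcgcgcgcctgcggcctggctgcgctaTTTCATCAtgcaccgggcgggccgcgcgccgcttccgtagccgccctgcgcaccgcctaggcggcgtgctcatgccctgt
The Aars window held 2 matches, 1 of them within the stretch transcribed from this start, and the other windows held 1 match each. Counted from 1 at the first transcribed base, with negative positions upstream, the match lay at 8 to 15 in Iars, 4 to 11 in Yars, −15 to −8 in Tars and −30 to −23 in Gars. The exact letters TGATGCAA, found in 0.895% of all windows, were present in 4 of the 5, all but Gars. These matches describe the letters of the windows and were not tested as binding sites.

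Libraries held 12082237 to 28533761 reads. Markers of epithelium (Krt8, Krt18, Krt7, Krt19, Epcam and Cdh1) summed to 1533 to 2583 CPM (a gene's reads as a share of its library's reads, scaled to a common total), with 2251 to 2583 CPM in TRC libraries and 1533 to 2143 CPM in shERWOOD libraries. All 6 were higher in 88943, while Krt7 and Krt19 were lower and the other 4 higher in 66708, and their part in the results was not tested. Leukocyte and endothelial markers stayed under 1 CPM in sum, and of 4 fibroblast markers only Pdgfra passed 1 CPM. Slpi, the target in its table, measured 145 to 156 CPM in 66708 libraries and 46.9 to 61.9 CPM in shERWOOD libraries. Mgp measured 15.4 to 16.2 CPM in 88943 libraries and 1.06 to 8.42 CPM in shERWOOD libraries. In bulk RNA, fewer cells that express a gene and less of its RNA per cell cannot be told apart.

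Across the 10 lines, cytosolic synthetases were the more abundant transcripts, with 17.9 to 152 CPM per kilobase of transcript as the median over lines and a middle gene at 46.5 CPM per kilobase. Mitochondrial synthetases had 0.962 to 60.04 CPM per kilobase, with a middle gene at 6.57 CPM per kilobase. Nars, for asparagine, headed the order at 152 CPM per kilobase, followed by Kars for lysine at 144, Rars for arginine at 144 and Gars for glycine at 123 CPM per kilobase. The ranges of these 4 over lines overlapped. Cars, for cysteine, was the lowest cytosolic gene at 17.9 CPM per kilobase, below mitochondrial Yars2 at 22.2 and Lars2 at 60.04 CPM per kilobase. Mars2, a single-exon gene with a transcript of 11.3 kilobases, was lowest of all at 0.962 CPM per kilobase. The ratio of the highest to the lowest line had a median of 1.48 in both compartments, and its extremes were 2.15 for cytosolic Cars and 2.21 for mitochondrial Lars2.

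Values within a table are given next as scaled reads, the recovered read counts divided by the library's size factor, and differences as log2-like units of the deposited scale, which understates changes of weakly expressed genes. A gene was tested when its mean exceeded the table's smallest value by 1 unit or more, and called at an adjusted p under 0.05 from limma. All 20 cytosolic and 13 mitochondrial genes were tested in both tables. Aars2, Ears2 and Sars2 lay under the minimum in both.

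In 88943 cells, 10 of the 12 reported ATF4 targets among the synthetases rose and 7 of the other 8 cytosolic synthetases fell. Of 20 cytosolic genes, 10 rose, 8 fell and Eprs and Vars were not called, against 28.7% higher and 42% lower among all 9174 genes tested. In 66708 cells the same 10 reported targets fell. There 13 cytosolic genes fell, 2 rose and 5 were not called, against 23.6% lower and 32.1% higher among all 9489 genes tested. Mitochondrial genes gave 1 rise and 5 falls of 13 in 88943 cells, and 3 rises and 3 falls of 13 in 66708 cells. Fars2, the 1 rise in 88943, passed the minimum only through 88943 (mean deposited value 9.256, against 9.115 in shERWOOD lines). Mars2, among the 5 falls, passed it only through the shERWOOD lines (9.434, against 9.069 in 88943). The smallest value of that table was 8.123, so each passed through the group where it was higher, which favours these 2 calls. The median difference was 0.14 for cytosolic and −0.06 for mitochondrial genes in 88943, against −0.04 for all genes, and −0.22 and −0.01 in 66708, against 0.02 for all genes.

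**Figure D1:**
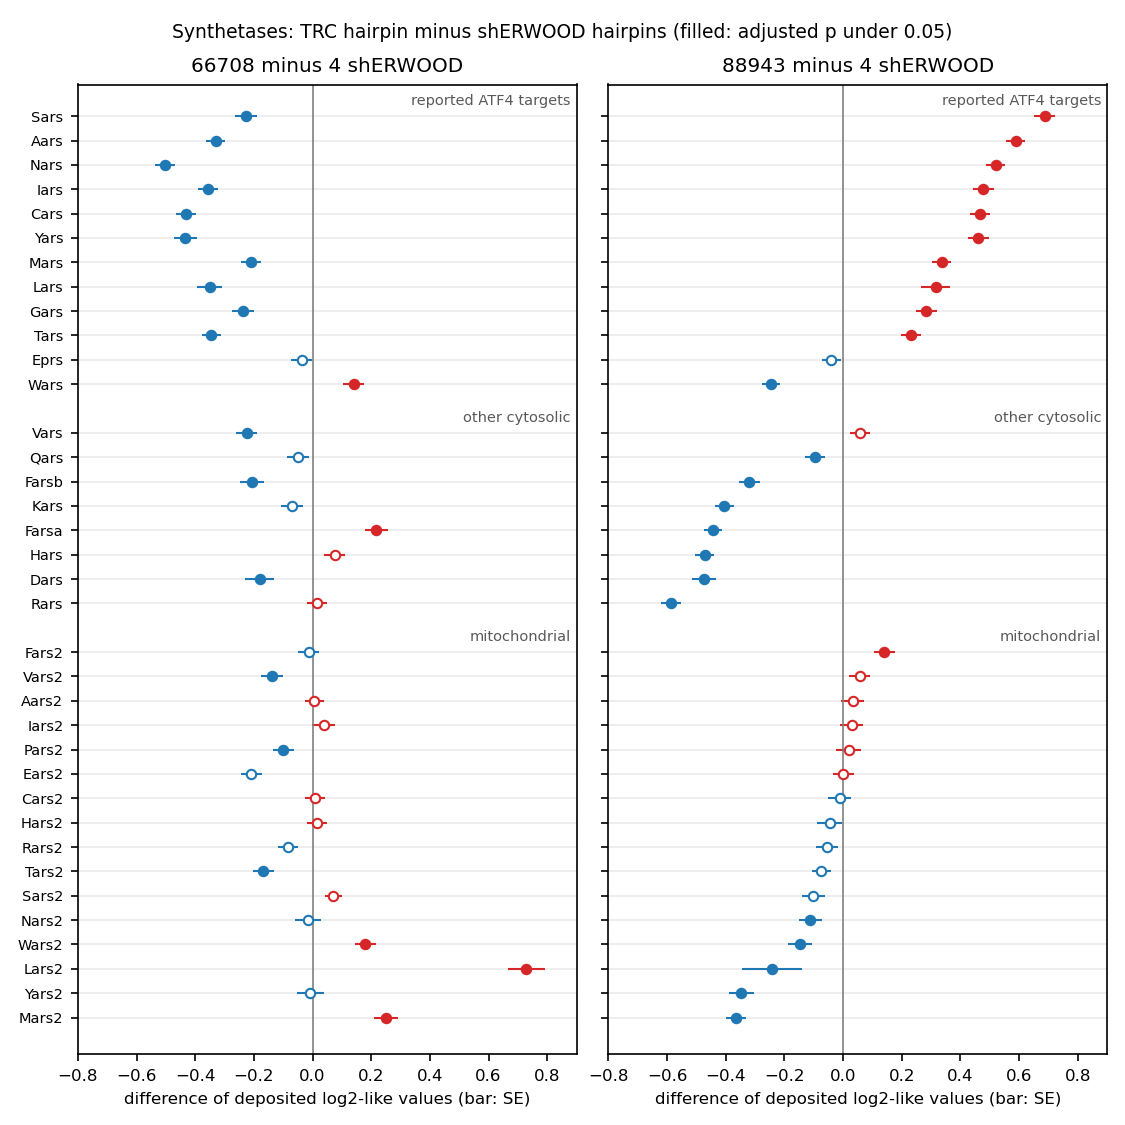
Difference of each synthetase, TRC hairpin minus shERWOOD mean (4 hairpins) (horizontal axis, log2-like units of the deposited scale; bar, SE; filled, adjusted p under 0.05; open, not called or under the minimum), for 66708 on the left and 88943 on the right. Of the 12 reported ATF4 targets at the top, 10 lie left of 0 in 66708 and the same 10 lie right of 0 in 88943, while Eprs stays near 0 and Wars lies on the opposite side in each.

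The same 10 reported ATF4 targets (Aars, Cars, Gars, Iars, Lars, Mars, Nars, Sars, Tars and Yars) were called lower in 66708 and higher in 88943, and no other synthetase had that pair of calls. Over all genes tested, 23.6% were called lower in 66708 and 28.7% higher in 88943. The share of all genes with both calls is not given here. The median over the 12 reported targets was −0.34 in 66708 and 0.40 in 88943. On the log2 scale of the recovered reads the medians were −0.37 and 0.47. The pattern covers both structural classes of synthetase, since Sars, Nars, Aars, Gars and Tars belong to class II and Yars, Cars, Iars, Lars and Mars to class I.

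Nars, for asparagine, had 6093 and 6045 scaled reads in 66708 libraries, against 7037 to 11143 (median 8709) in the 8 shERWOOD libraries of the Slpi table. Both 66708 libraries lay below all shERWOOD libraries, a difference of −0.50 ± 0.03 (SE, limma adjusted p = 2.4e-08) and a ratio of 0.682. In the Mgp table Nars had 9436 and 9679 scaled reads in 88943 libraries, against 5980 to 7076 (median 6460) in the 8 shERWOOD libraries. There both TRC libraries lay above all others, a difference of 0.52 ± 0.03 (SE, limma adjusted p = 9.0e-10) and a ratio of 1.47.

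Sars, for serine, at chr3:108424865-108445209 (GENCODE on mm10, minus strand, 11 exons), had the largest rise among synthetases in 88943 cells. It measured 3651 and 3699 scaled reads in 88943 libraries, against 1950 to 2197 (median 2102) in shERWOOD libraries of the same table. The 88943 libraries lay above all others, a difference of 0.69 ± 0.03 (SE, limma adjusted p = 9.5e-11) and a ratio of 1.76. In the Slpi table Sars measured 2407 and 2440 scaled reads in 66708 libraries, against 2439 to 3627 (median 2848) in shERWOOD libraries. The groups met there, because the 2 Slpi1U1 libraries had 2521 and 2439 scaled reads, and the difference was −0.23 ± 0.04 (SE, limma adjusted p = 1.4e-04).

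Aars, for alanine, at chr8:111033144-111057664 (plus strand, 21 exons), measured 5495 and 5648 scaled reads in 88943 libraries, against 3351 to 3751 (median 3512) in shERWOOD libraries, a ratio of 1.58. In 66708 libraries it measured 3705 and 3600 scaled reads, against 3966 to 5825 (median 4623) in shERWOOD libraries, a ratio of 0.769. Neither pair of groups overlapped, with differences of 0.59 ± 0.03 in 88943 (SE, limma adjusted p = 2.5e-10) and −0.33 ± 0.03 in 66708 (SE, limma adjusted p = 9.9e-07). The gene shares 14.3% of its exon bases with Exosc6 on the same strand, whose reads could not be separated here.

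Yars, for tyrosine, measured 1376 and 1542 scaled reads in 66708 libraries, against 1773 to 2497 (median 2116) in shERWOOD libraries, a ratio of 0.685. In 88943 libraries it measured 2286 and 2270 scaled reads, against 1449 to 1616 (median 1521) in shERWOOD libraries, a ratio of 1.498. TRC libraries lay outside the shERWOOD range in both tables, below it in the Slpi table (difference −0.43 ± 0.04, SE, limma adjusted p = 4.9e-07) and above it in the Mgp table (difference 0.46 ± 0.04, SE, limma adjusted p = 1.7e-08).

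Cars, for cysteine, measured 847 and 832 scaled reads in 66708 libraries, against 1046 to 1587 (median 1243) in shERWOOD libraries, the lowest ratio among tested cytosolic genes of this table at 0.653. In 88943 libraries it measured 1307 and 1388 scaled reads, against 786 to 889 (median 869) in shERWOOD libraries, a ratio of 1.59. Iars, for isoleucine and a member of the multisynthetase complex, measured 3353 and 3446 scaled reads in 66708 libraries, against 4006 to 5178 (median 4442) in shERWOOD libraries. For both genes the TRC libraries lay outside the shERWOOD range of their table. In 88943 libraries Iars measured 5623 and 5814 scaled reads, against 3714 to 4192 (median 3946) in shERWOOD libraries, a ratio of 1.45.

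Lars, Tars, Gars and Mars, for leucine, threonine, glycine and methionine, moved in the same pair of directions with smaller rises. Their ratios in 66708 were 0.747 for Lars, 0.763 for Tars, 0.832 for Gars and 0.832 for Mars. Their ratios in 88943 were 1.29 for Lars, 1.19 for Tars, 1.24 for Gars and 1.33 for Mars. In each case the TRC libraries lay outside the shERWOOD range, as did 20.4% of all genes in 66708 on the low side and 24.3% in 88943 on the high side. Mars overlaps Ddit3 on the opposite strand over 1.99% of its exon bases, and whether counting used strand is not given in the sources used here.

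The remaining reported ATF4 targets, Wars and Eprs, did not share this pair of directions. Wars, for tryptophan and known as an interferon-inducible synthetase, measured 1567 and 1587 scaled reads in 66708 libraries, against 1329 to 1467 (median 1387) in shERWOOD libraries. In 88943 libraries it measured 1309 and 1287 scaled reads, against 1587 to 1687 (median 1622) in shERWOOD libraries. Wars was above the shERWOOD range in 66708 (difference 0.14 ± 0.04, SE, limma adjusted p = 0.00439) and below it in 88943 (difference −0.25 ± 0.03, SE, limma adjusted p = 2.6e-06). The call of Wars in 66708 was lost under quantile normalization, with a difference of 0.09. Eprs, the fused glutamate and proline enzyme, overlapped the shERWOOD libraries in both tables, with ratios of 0.972 in 66708 and 0.971 in 88943, and under quantile normalization its difference in 88943 turned to 0.11.

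When the mean of each hairpin was taken as 1 sample, so that the spread between shERWOOD hairpins was the error, 8 cytosolic genes were called lower in 66708. They were Cars, Iars, Lars, Nars and Yars among the reported targets, and Dars, Farsb and Vars. Farsa was then the 1 cytosolic gene called higher in 66708. In 88943 all 10 reported targets named above were called higher, and Wars, Dars, Farsa, Farsb, Hars, Kars and Rars lower. Over all genes tested, 1831 of 9489 were then called higher and 1211 lower in 66708. In 88943, 1626 of 9174 were called higher and 2525 lower. Among mitochondrial genes, Lars2, Mars2 and Wars2 were then called higher and none lower in 66708, and Mars2 and Yars2 were called lower and none higher in 88943.

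**Figure D2:**
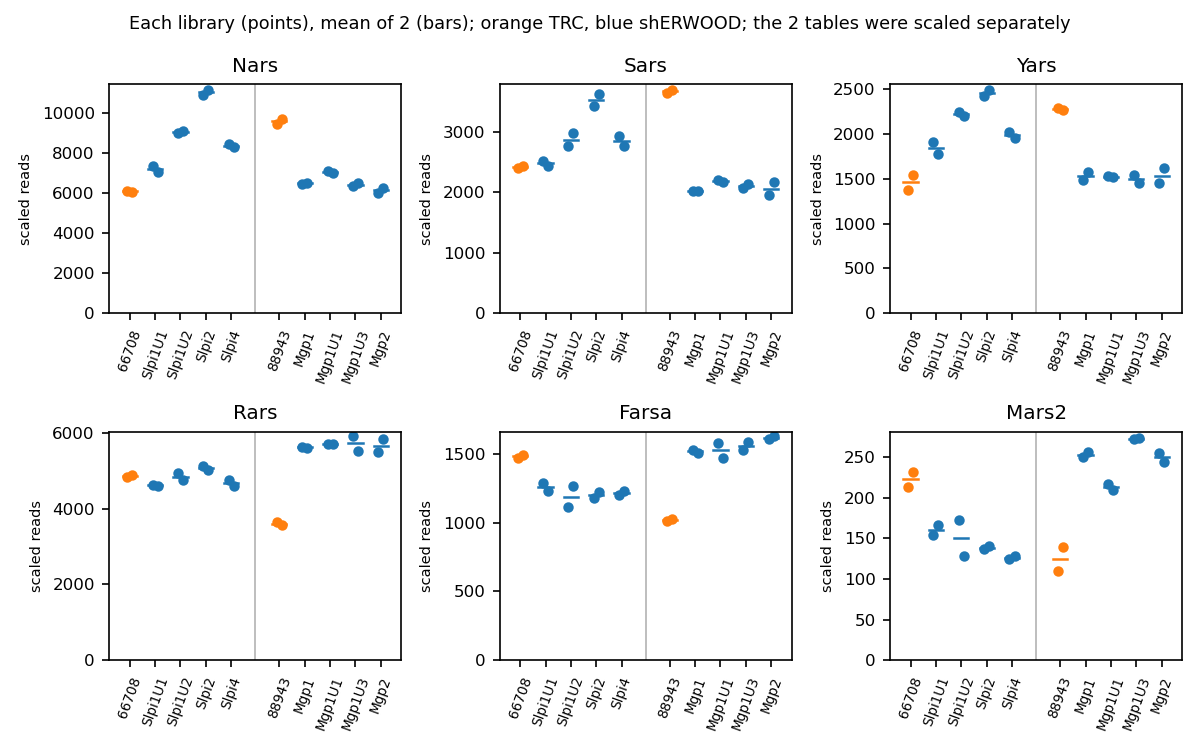
Scaled reads of 6 synthetases (vertical axis, from 0) in each of the 20 libraries (points; bar, mean of 2), TRC in orange and shERWOOD in blue, with the Slpi table left and the Mgp table right of the grey line; the tables were scaled separately. Nars, Sars and Yars are low in 66708 and high in 88943, Rars and Farsa are low in 88943, and Mars2 is high in 66708 and low in 88943.

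The Slpi shERWOOD lines also differed among themselves in the reported ATF4 targets. An F-test among the 4 shERWOOD hairpins called 11 cytosolic genes and no mitochondrial gene in the Slpi table, against 7.55% of all genes tested and 11.1% of genes at least 3 units above the smallest value. At an unadjusted p under 0.05 it called 4 of 13 mitochondrial genes, and limma-voom on the recovered reads called 0. The 11 were the reported targets other than Wars. Slpi2 was highest of the 5 lines for 11 of 12 reported targets and 16 of 20 cytosolic genes, and 66708 was lowest for 15 of 20. Both 66708 libraries lay below the other 8 for 20.4% of all genes tested. The share of all genes with a given line highest or lowest by its mean is not given here.

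Nars averaged 11014 scaled reads in Slpi2, 9046 in Slpi1U2, 8353 in Slpi4 and 7180 in Slpi1U1, and no line's libraries overlapped those of another line. Slpi2 exceeded Slpi1U1 by 0.59 ± 0.04 for Nars (SE, limma adjusted p = 5.9e-07). Aars and Tars followed the same order of lines, with Slpi2 exceeding Slpi1U1 by 0.48 ± 0.04 for Aars (SE, limma adjusted p = 2.7e-06) and by 0.45 ± 0.04 for Tars (SE, limma adjusted p = 8.0e-06).

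Slpi2 was called higher than Slpi1U1 for 11 cytosolic genes, against 2.6% of all genes, and higher than Slpi1U2 for 5, against 1.07%. Slpi4 was called lower than Slpi2 for 11 cytosolic genes, against 2.19% of all genes. Slpi1U2 was called higher than Slpi1U1 for 4, against 0.464%, and no mitochondrial gene was called in any of the 6 pairs of Slpi shERWOOD lines by limma or by limma-voom, with 1 to 4 per pair at an unadjusted p under 0.05. Calls in either direction over all genes in those pairs were 0.79% for Slpi1U2 minus Slpi1U1, 4.66% for Slpi2 minus Slpi1U1, 2.4% for Slpi4 minus Slpi1U1, 1.64% for Slpi2 minus Slpi1U2, 6.48% for Slpi4 minus Slpi1U2 and 4.18% for Slpi4 minus Slpi2. Slpi1U1 and Slpi1U2 share a name stem, and the labels used here do not say whether they share a target site. Leaving out Slpi2 left 13 cytosolic falls in 66708.

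Among the Mgp shERWOOD lines the F-test called 4 cytosolic genes (Dars, Kars, Nars and Vars) and 3 mitochondrial genes (Iars2, Lars2 and Wars2), against 29.4% of all genes tested. Leaving out 1 library gave 1 to 11 calls, the lowest without the first library of Mgp1U1 and the highest without the second library of Mgp2. It gave 9 calls without the first library of Mgp2 and 2 to 5 without each other library of the table. Lars2 had the largest range among the 4 hairpins, with 4783 scaled reads in Mgp1U3, 4487 in Mgp1U1, 4313 in Mgp2 and 2910 in Mgp1. Wars2 came next, with Mgp1U3 exceeding Mgp1U1 by 0.21 ± 0.05 (SE, limma adjusted p = 0.024), followed by Nars, with Mgp2 below Mgp1U1 by a difference of −0.19 ± 0.04 (SE, limma adjusted p = 0.00995). Yars spanned 1498 to 1533 scaled reads over the 4 line means.

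**Figure D3:**
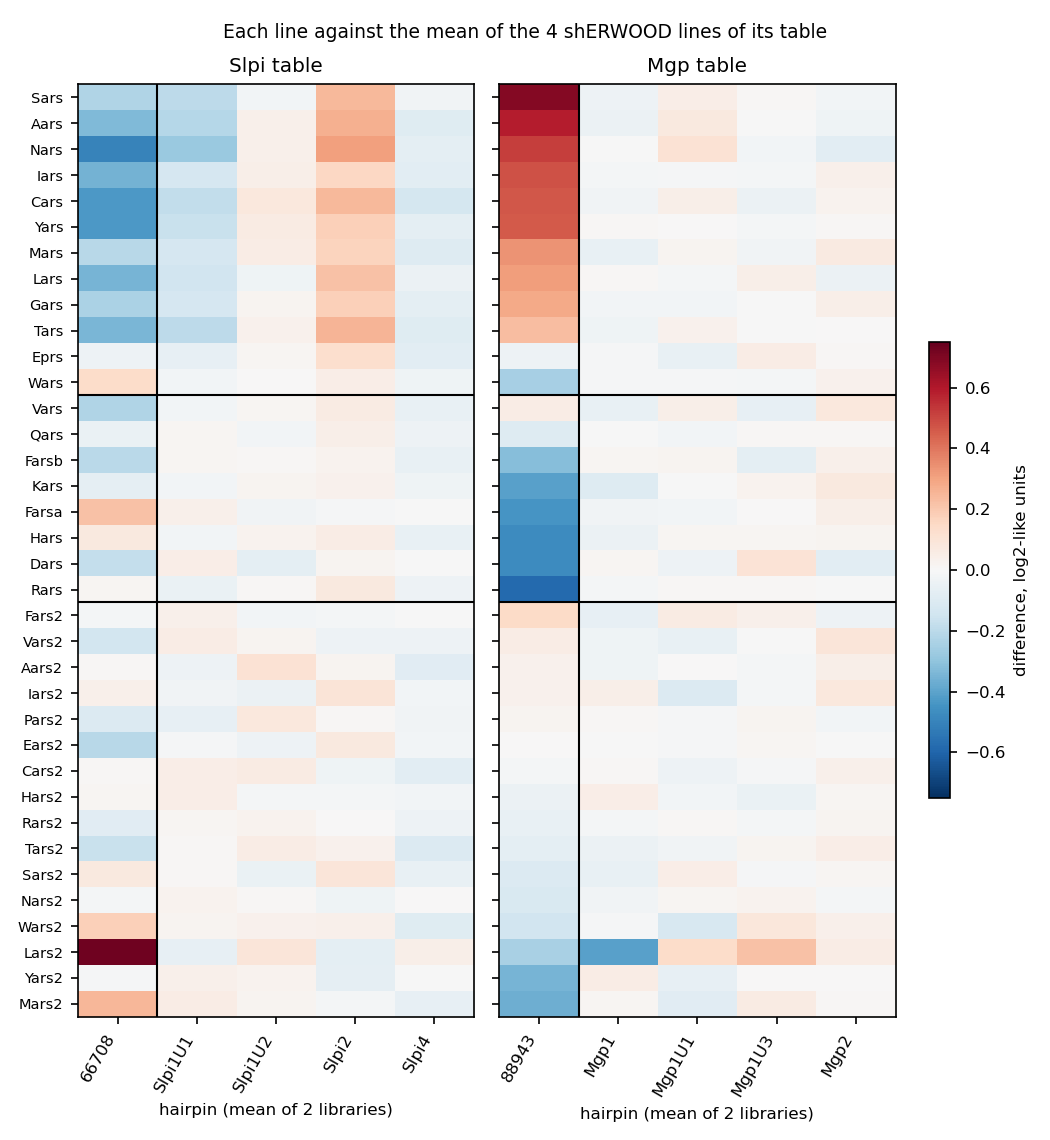
Mean deposited value of each synthetase (rows) in each line (columns) minus the mean of the 4 shERWOOD lines of its table, in log2-like units (red higher, blue lower), with TRC lines left of the vertical line and rows split into reported ATF4 targets, other cytosolic and mitochondrial genes. The reported targets other than Wars and Eprs form a low block in 66708 and Slpi1U1 and a high block in Slpi2 and 88943. The other cytosolic rows repeat it in part in the Slpi table, with Slpi2 highest for 5 of 8 and 66708 lowest for 5 of 8. In 88943 they are lowest for 7 of 8, and the mitochondrial rows do not repeat the block. Shares of all genes at these ranks are not given here.

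The other 8 cytosolic synthetases followed a different pattern in 88943, where 7 fell and Vars was not called, with a median of −0.42. In 66708, 3 of the 8 fell (Dars, Farsb and Vars), Farsa rose and 4 were not called, with a median of −0.06. Dars and Farsb were called lower in both TRC lines.

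Rars, for arginine, at chr11:35808381-35834506 (minus strand, 15 exons), had the largest fall among synthetases in 88943 cells on the deposited scale, while by ratio of scaled reads Mars2 (0.504) and Hars (0.634) were lower. It measured 3653 and 3559 scaled reads in 88943 libraries, against 5483 to 5910 (median 5668) in shERWOOD libraries, a ratio of 0.635 with no overlap (difference −0.59 ± 0.03, SE, limma adjusted p = 5.9e-10). In 66708 libraries it measured 4822 and 4885 scaled reads, against 4592 to 5128 (median 4748) in shERWOOD libraries, and the groups overlapped.

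Dars, for aspartate, measured 2007 and 1986 scaled reads in 88943 libraries, against 2660 to 3334 (median 2944) in shERWOOD libraries, a ratio of 0.671. In 66708 libraries it measured 2232 and 2384 scaled reads, against 2470 to 3039 (median 2616) in shERWOOD libraries, a ratio of 0.862. Both TRC lines lay below the shERWOOD range (limma adjusted p = 2.9e-08 in 88943 and 0.00686 in 66708), and the call in 66708 was lost without its first library, with a difference of −0.14. Hars, for histidine, fell to a ratio of 0.634 in 88943 and Kars, for lysine, to 0.730. In 66708 their ratios were 1.07 for Hars and 0.948 for Kars, and neither was called, although both 66708 libraries lay below all shERWOOD libraries for Kars. Qars, for glutamine, had a ratio of 0.921 in 88943 and lost its call without either 88943 library, with differences of −0.08 and −0.11. Under quantile normalization its difference turned to 0.02. Hars and Hars2 overlap head to head over 7.97% of the exon bases of Hars.

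Farsa and Farsb encode the catalytic and the beta subunit of cytosolic phenylalanine synthetase, which work as a tetramer. In 88943 both fell, with 1014 and 1022 scaled reads of Farsa in 88943 libraries, against 1472 to 1629 (median 1553) in shERWOOD libraries. Farsb measured 2203 and 2130 scaled reads in 88943 libraries, against 2653 to 3080 (median 2838) in shERWOOD libraries. In 66708 the subunits moved apart, Farsa rising to 1470 and 1491 scaled reads in 66708 libraries, against 1111 to 1291 (median 1225) in shERWOOD libraries, and Farsb falling to 2216 and 2228 scaled reads, against 2447 to 2818 (median 2572). The differences in 66708 were 0.22 ± 0.04 for Farsa (SE, limma adjusted p = 2.6e-04) and −0.20 ± 0.04 for Farsb (SE, limma adjusted p = 6.4e-04).

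Members of the multisynthetase complex did not share a direction. Of its 8 enzymes, 3 rose (Iars, Lars and Mars) and 4 fell (Dars, Kars, Qars and Rars) in 88943, and 4 fell and 4 were not called in 66708. Its 3 scaffold genes all fell in 88943. Over all genes tested, 28.7% rose and 42% fell in 88943, and 23.6% fell in 66708. Aimp2 measured 1070 scaled reads in both 88943 libraries, against 1986 to 2312 (median 2163) in shERWOOD libraries, a ratio of 0.501. Eef1e1 had a ratio of 0.511 and Aimp1 of 0.842 in 88943. In 66708 Aimp2 rose, with a ratio of 1.24, and Aimp1 (1.01) and Eef1e1 (1.05) were not called. Aimp2 shares 29.4% of its exon bases with Eif2ak1 on the opposite strand.

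Among mitochondrial synthetases, Mars2, Lars2 and Wars2 were called higher in 66708 and lower in 88943, the reverse of the reported ATF4 targets. All tested mitochondrial genes but Lars2 lay within 3 units of the smallest value, where 52.5% of genes were called in 66708 and 68.2% in 88943, and 6 of 13 mitochondrial genes were called in each line. In 66708 Tars2, Vars2 and Pars2 fell, and in 88943 Fars2 rose and Yars2 and Nars2 fell, besides the 3 above. Cars2, Hars2, Iars2 and Rars2 were called in neither. Several of these calls were lost when 1 library was left out. Vars2 (−0.12) lost its call without the first 66708 library. Pars2 lost it without either 66708 library (−0.10 each time) or without the second Slpi4 library (−0.09). Wars2 (−0.14) and Nars2 (−0.06) lost theirs without the first 88943 library, and Fars2 (0.10) without the second.

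Mars2, for mitochondrial methionine, at chr1:55237177-55248470 (plus strand, 1 exon), measured 213 and 232 scaled reads in 66708 libraries, against 125 to 172 (median 139) in shERWOOD libraries, a ratio of 1.55. In 88943 libraries it measured 110 and 139 scaled reads, against 210 to 273 (median 252) in shERWOOD libraries, a ratio of 0.504. TRC libraries lay outside the shERWOOD range in both tables, with differences of 0.25 ± 0.04 in 66708 (SE, limma adjusted p = 1.0e-04) and −0.37 ± 0.03 in 88943 (SE, limma adjusted p = 1.0e-07). In the Mgp table Mars2 passed the minimum only through the shERWOOD lines, where it was higher. The tables were scaled separately, so levels of Mars2 are not compared between them.

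Yars2, for mitochondrial tyrosine, measured 543 and 471 scaled reads in 88943 libraries, against 682 to 825 (median 759) in shERWOOD libraries, a ratio of 0.669 with no overlap (limma adjusted p = 2.4e-06). In 66708 libraries it measured 535 and 547 scaled reads, against 477 to 614 (median 535) in shERWOOD libraries, and the groups overlapped. Wars2, for mitochondrial tryptophan, had ratios of 1.25 in 66708 and 0.828 in 88943, outside the shERWOOD range each time, the same directions as cytosolic Wars. Tars2, for mitochondrial threonine, measured 291 and 266 scaled reads in 66708 libraries, against 291 to 386 (median 357) in shERWOOD libraries, a ratio of 0.789, with 1 library at the lower end of the shERWOOD range.

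Lars2, for mitochondrial leucine, at chr9:123366927-123462666 (plus strand, 21 exons), is given beside Rn45s, the ribosomal RNA precursor, because both were highest in the 66708 libraries of the Slpi table. It measured 6332 and 6308 scaled reads in 66708 libraries, against 3115 to 4166 (median 3667) in shERWOOD libraries, a difference of 0.73 ± 0.06 (SE, limma adjusted p = 3.4e-07) and a ratio of 1.73. Rn45s took 2.77% and 2.31% of reads in those 66708 libraries, against 1.27% to 1.87% for the shERWOOD lines. In the Mgp table Mgp2 had 5293 scaled reads of Lars2 in the library with 2.39% Rn45s and 3333 in the library with 1.29% Rn45s. Lars2 measured 3725 and 2964 scaled reads in 88943 libraries, against 2884 to 5293 (median 4384) in shERWOOD libraries, so that the groups overlapped (limma adjusted p = 0.043). This call was lost without the second 88943 library (difference −0.10), and differences of −0.22 to −0.25 without either Mgp1 library, the second Mgp1U1 library or the second Mgp1U3 library were also not called. It was also lost without Mgp1U1 (−0.20) or Mgp1U3 (−0.17) as a whole and under quantile normalization (−0.11). The part of Rn45s in the results for Lars2 was not tested. Without Lars2 the mitochondrial counts were 2 higher and 3 lower of 12 in 66708, and 1 higher and 4 lower of 12 in 88943.

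**Figure D4:**
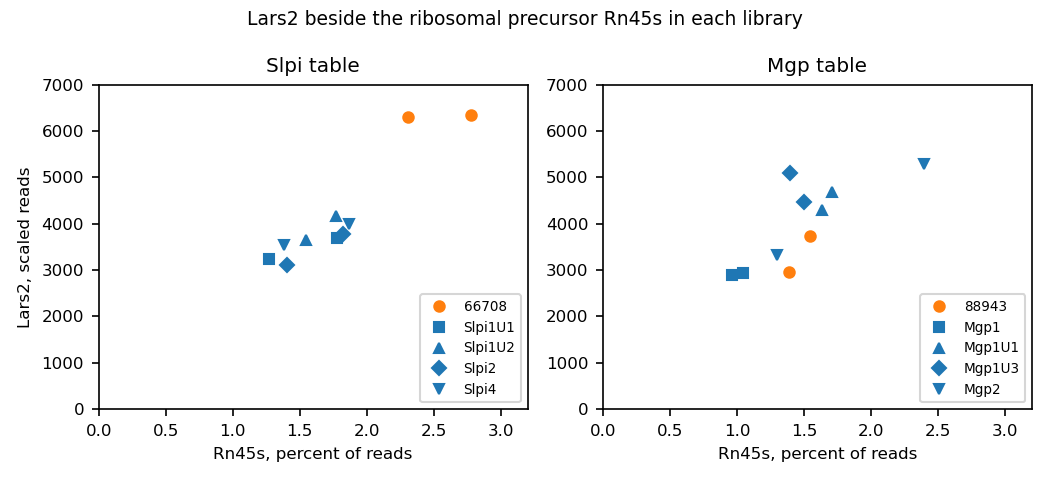
Scaled reads of Lars2 (vertical axis, from 0) against the percent of reads assigned to Rn45s (horizontal axis) in each of the 10 libraries of the Slpi table and of the Mgp table, TRC in orange and shERWOOD in blue, with a symbol per hairpin. Both 66708 libraries are highest on both axes in the Slpi table, at 6332 and 6308 scaled reads, and the 2 Mgp2 libraries are far apart on both axes.

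The 3 genes under the minimum were fitted with all genes that varied. Ears2, for mitochondrial glutamate, measured 68.5 and 59.7 scaled reads in 66708 libraries, against 92.1 to 135 (median 105) in shERWOOD libraries, a ratio of 0.596 with no overlap (limma adjusted p = 0.0025 in that fit). In 88943 libraries Ears2 measured 90.7 and 95.5 scaled reads, against 79.5 to 106 (median 93.9) in shERWOOD libraries. Aars2 had ratios of 1.01 in 66708 and 1.08 in 88943, and Sars2 of 1.16 in 66708 and 0.802 in 88943, none of them called.

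The 2 TRC contrasts share no library, and their difference was tested over all 20 libraries on the recovered reads. The contrast of 88943 minus that of 66708 was positive and called for 11 cytosolic and 3 mitochondrial genes, and negative and called for 6 cytosolic and 4 mitochondrial genes, against 28.4% higher and 43.6% lower among 9144 genes with a median of −0.11. All 10 genes named above were among the positive ones, and Vars was the eleventh. Cars had the largest positive difference, 1.27 ± 0.06 (SE, log2 of reads, limma adjusted p = 9.3e-13), and Mars2 the largest negative one, −1.63 ± 0.13 (SE, limma adjusted p = 1.2e-09). Eprs gave −0.0042 ± 0.047 (SE), the value closest to 0. Without the second 88943 library 1 mitochondrial gene instead of 3 was called positive.

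Set beside the mitochondrial enzyme for the same amino acid, the cytosolic gene had the lower log2 difference in 8 of 13 pairs with both genes tested in 66708, and the higher one in 7 of 13 pairs in 88943. The sign of cytosolic minus mitochondrial difference turned between the lines in 12 of 13 pairs, with Farsa alone standing for phenylalanine. The turns ran both ways: 7 pairs went from negative in 66708 to positive in 88943, and 5 went from positive to negative. Some turns started from values near 0 in 66708, such as −0.02 for threonine, 0.045 for valine and 0.06 for histidine. Others ended near 0 in 88943, at −0.09 for proline (Eprs and Pars2) and −0.07 for valine. For methionine the pair differed by −0.91 in 66708 (Mars −0.26, Mars2 0.65) and by 1.38 in 88943 (Mars 0.42, Mars2 −0.97). For tyrosine it differed by −0.52 in 66708 (Yars −0.53, Yars2 −0.01) and by 1.17 in 88943 (Yars 0.58, Yars2 −0.59). The pairs for proline, histidine, arginine, valine and phenylalanine went the other way. Phenylalanine, taken through Farsa, had 0.32 in 66708 (Farsa 0.29, Fars2 −0.04) and −1.02 in 88943 (Farsa −0.61, Fars2 0.42). Farsb, the other subunit, was not paired, and at −0.24 in 66708 and −0.39 in 88943 it lay below Fars2 in both lines. Tryptophan kept its sign, at −0.15 in 66708 and −0.07 in 88943. These pair values are descriptions without a test.

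Levels across the tables, as CPM relative to each library's total, placed both TRC lines against all shERWOOD lines. The 12 reported ATF4 targets summed to 2268 ± 32 CPM in 66708 (SD, n = 2) and 3409 ± 49 CPM in 88943 (SD, n = 2). The shERWOOD lines summed to 2386 to 2428 CPM for the 4 Mgp hairpins, 2666 ± 96 for Slpi1U1, 2799 ± 52 for Slpi4, 3093 ± 10 for Slpi1U2 and 3510 ± 5 for Slpi2 (SD, n = 2 each). On this scale 66708 was close to the Mgp shERWOOD lines, and Slpi2, a shERWOOD line, was above 88943. The other 8 cytosolic genes summed to 1126 ± 4 CPM in 88943 and 1202 ± 8 CPM in 66708 (SD, n = 2 each), both below the 1298 to 1407 CPM of the 8 shERWOOD lines. The 15 mitochondrial genes without Lars2 summed to 296 ± 3 CPM in 66708 and 327 ± 8 CPM in 88943 (SD, n = 2 each), beside 297 to 342 CPM in the shERWOOD lines. The tables were normalized separately by the authors, and these sums were not tested.

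**Figure D5:**
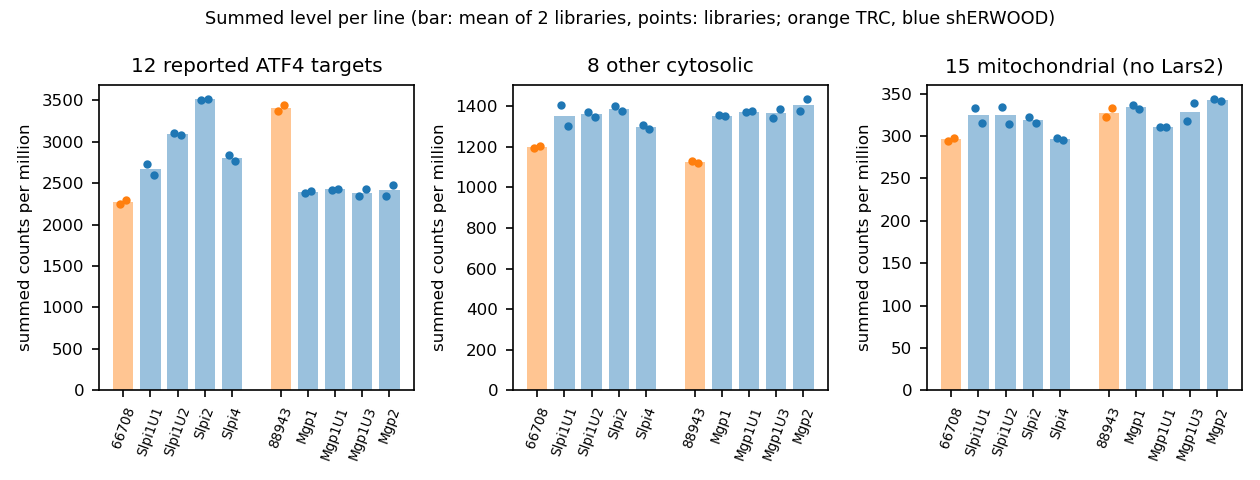
Summed CPM (vertical axis, from 0) of the 12 reported ATF4 targets, the 8 other cytosolic synthetases and the 15 mitochondrial synthetases without Lars2 in each line (bar, mean of 2 libraries; points, libraries), TRC in orange and shERWOOD in blue. The reported targets range over lines from 2268 CPM in 66708 to 3510 CPM in Slpi2, and the other cytosolic genes are lowest in the TRC lines.

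Other genes of the ATF4 pathway, its kinases included, were taken as a list of 11. In the Slpi table, 9 were tested, of which 6 fell in 66708 and none rose, and in the Mgp table, 8 were tested, of which 7 rose in 88943. Over all genes tested, 23.6% fell and 32.1% rose in 66708, and 28.7% rose in 88943. Eif2ak4, the kinase that senses uncharged transfer RNA, fell in both, with ratios of 0.725 in 66708 and 0.865 in 88943. Asns, asparagine synthetase, measured 1966 and 1927 scaled reads in 66708 libraries, against 2946 to 5634 (median 3831) in shERWOOD libraries. In 88943 libraries it measured 5179 and 5153 scaled reads, against 1723 to 2264 (median 2027) in shERWOOD libraries. Chac1, a glutathione-degrading enzyme induced through ATF4, averaged 1917 scaled reads in Slpi2, 1421 in Slpi1U2, 999.5 in Slpi4, 377 in Slpi1U1 and 230 in 66708. It measured 1433 and 1376 scaled reads in 88943 libraries, against 172 to 206 (median 185) in shERWOOD libraries, a ratio of 7.57. Trib3, a pseudokinase induced in this response, had a ratio of 0.202 in 66708 and, under the minimum of the Mgp table, 10.8 in 88943. Atf4 transcript itself had ratios of 0.765 in 66708, where Slpi1U1 lay slightly lower than 66708, and 1.52 in 88943.

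Of 13 genes for maturation and export of transfer RNA, 10 fell and none rose in 88943, where 42% of all genes tested fell and 28.7% rose. Among them were Pop1, a subunit of RNase P, with a ratio of 0.576, Trnt1, which adds the CCA end, at 0.637 and Rpp30, another RNase P subunit, at 0.633. In 66708, 4 of these 13 rose (Rtcb, Ddx1, Pop1 and Trnt1) and Elac1 fell, against 32.1% higher and 23.6% lower among all genes tested. Rtcb, the tRNA ligase, had a ratio of 1.23 there. Among 5 tested genes for trans-editing and peptide release, Ptrh2 and Dtd1 fell and Prorsd1 rose in 88943, while Aarsd1 and Dtd1 rose in 66708. Aarsd1 shares 41.0% of its exon bases with another gene on the same strand. Of the mitochondrial amidotransferase and formylation genes, Qrsl1 fell in 88943 to a ratio of 0.612, and none of the 4 was called in 66708 by limma, at an unadjusted p under 0.05 or by limma-voom.

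Elongation factors did not move in 1 direction. Nor did all genes tested, of which 28.7% rose and 42% fell in 88943, and 32.1% rose and 23.6% fell in 66708. In 88943 Eif5a (0.665), Eef1d (0.713) and Eef1g (0.903) fell and Eef2 (1.23) rose, with ratios of scaled reads in parentheses, and in 66708 Eif5a (1.19), Eef1d (1.19) and Eef1a1 (1.09) rose. A list of 5 genes was set under mitochondrial elongation, though not all of them, Gfm2 for one, are elongation factors. Of these, Gfm1 (0.660) and Tufm (0.706) fell and Gfm2 (1.17) rose in 88943. In 66708 Tufm (1.13) rose and Gfm2 (0.729) and Guf1 (0.874) fell. Of the selenocysteine genes, Secisbp2 fell in 88943 to a ratio of 0.638, and neither tested gene was called in 66708 by limma, at an unadjusted p under 0.05 or by limma-voom.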

How the data were processed

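RNA-seq of 4T1 lines was read from 2 tables of log2-like, variance-stabilised values, deposited by the authors, 1 for 5 Slpi hairpins and 1 for 5 Mgp hairpins. Bowtie2, HTSeq, DESeq and mm10 are named in the submitters' processing notes; the annotation and the use of strand in counting were not given in the sources used here. Per the labels' protocols, 100 ng of DNase-treated RNA was amplified with a NuGEN kit and read at 76 bp. The labels list 40 samples, 4 per hairpin, and the tables hold 20 columns, 2 per hairpin, which carry the hairpin but not which sample, so columns were tied to hairpins only. The scale was inverted to whole reads, and 100% of values came out whole within 0.001. It compresses low values: a doubling from 100 scaled reads is 0.358 units and from 1000 is 0.770 units in the Slpi table. CPM were computed from the recovered reads.

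Genes whose mean exceeded the table's smallest value by 1 unit or more (about 121 and 139 scaled reads) were fitted with limma 3.58.1 in R 4.3.3, moderated with a trend, with 1 mean per hairpin. The TRC hairpin was set against the mean of the 4 shERWOOD hairpins, p-values were adjusted over all genes tested by the Benjamini-Hochberg method, and the threshold was 0.05. An F-test compared the shERWOOD hairpins. The difference of both contrasts was fitted with limma-voom on the recovered reads of all 20 libraries. Fold values are ratios of mean scaled reads. The scripts were tested on simulated data. Exon overlaps, transcript lengths and coordinates came from GENCODE M21 on GRCm38, promoter windows from RefSeq. Tables were normalized separately, so tests stay within a table except in that joint fit.

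The 36 genes and all gene lists were chosen with earlier results of these data known. Named in detail were the 6 cytosolic and 4 mitochondrial genes with the largest called difference per line, the 3 with the largest range among shERWOOD hairpins per table, and the first 10 with opposite calls; other members are named where a group is described, after their values were seen. Alternatives were no filter or a minimum of 3 units, equal library medians, quantile normalization, limma-voom, no trend, hairpin means as samples, a replicate block and leaving out each library. Leaving out a whole hairpin, and leaving out Lars2, were chosen after seeing the data.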

Additional observations from a re-analysis of the deposited data

Results flagged for a closer look

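The response of the synthetases differed between the 2 TRC hairpins when the difference of their contrasts was itself tested (limma-voom over 20 libraries, adjusted over 9144 genes, 88943 minus 66708). The difference was positive and called for 11 of 20 cytosolic and 3 of 13 mitochondrial genes, and negative and called for 6 cytosolic and 4 mitochondrial genes. Over all genes, 28.4% were called higher and 43.6% lower, with a median of −0.11. Mitochondrial genes were thus called no more often than all genes in either direction. The positive cytosolic differences, on the log2 scale, were 1.27 for Cars, 1.11 for Yars, 1.09 for Nars, 1.08 for Sars, 1.03 for Aars, 0.93 for Iars, 0.78 for Lars, 0.67 for Mars, 0.64 for Tars, 0.57 for Gars and 0.34 for Vars. The negative cytosolic differences were −0.89 for Farsa, −0.75 for Hars, −0.67 for Rars, −0.51 for Wars, −0.38 for Kars and −0.36 for Dars. Among mitochondrial genes the differences were 0.45 for Fars2, 0.45 for Vars2, 0.21 for Tars2, −0.58 for Wars2, −0.58 for Yars2, −1.08 for Lars2 and −1.63 for Mars2. The 2 contrasts differ in hairpin, target gene and comparison lines at once, so what sets these differences cannot be told apart. The Tars2 call was lost when any 1 of 8 libraries was left out, with values of 0.13 to 0.21.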

How the results depend on the processing

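Of 2178 values for single synthetases under alternatives, 2046 kept direction and call, 50 lost and 31 gained a call, 49 uncalled values changed sign and 2 reversed: under quantile normalization Eprs in 88943 gave 0.11 and Qars in 88943 gave 0.0201. Of the 10 reported targets lower in 66708 and higher in 88943, Aars, Gars, Mars, Sars and Tars were no longer called in 66708 with hairpin means as samples. With a minimum of 3 units, Cars was not tested in either line and Yars was not tested in 88943. With hairpin means as samples, 1 cytosolic gene rose and 8 fell, 0 mitochondrial genes fell and 3042 genes were called in all in 66708, against 5285; in 88943, 0 mitochondrial genes rose, 2 fell and 4151 genes were called in all, against 6490. With a minimum of 3 units, which leaves fewer genes to test, 66708 gave 0 cytosolic rises, 1 mitochondrial rise, 0 mitochondrial falls and 1735 calls in all, and 88943 gave 5 cytosolic falls, 0 mitochondrial rises, 0 mitochondrial falls and 1928 calls in all, with 4 synthetases called among Mgp shERWOOD hairpins. Without a filter that last count was 2. Quantile normalization gave 1 cytosolic rise in 66708 and 2 mitochondrial rises in 88943. Equal library medians gave 2 mitochondrial rises and 3 falls in 88943, and moved the share of calls that were higher in 66708 to 48.3%, against 57.6% as reported, and in 88943 to 50.3%, against 40.6%. Without Mgp2, 2 mitochondrial genes rose in 88943. The cause was not tested except where the alternative tests fewer genes or samples.

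Leaving out 1 library at a time gave 3742 to 5429 calls in all in 66708, with 2 cytosolic rises, 12 to 13 cytosolic falls, 3 mitochondrial rises and 2 to 3 mitochondrial falls. It gave 5461 to 6799 calls in all in 88943, with 10 to 11 cytosolic rises, 7 to 8 cytosolic falls, 0 to 1 mitochondrial rises and 3 to 6 mitochondrial falls. The difference of contrasts gave 11 cytosolic positive, 6 to 7 cytosolic negative, 1 to 4 mitochondrial positive and 4 to 5 mitochondrial negative calls. Synthetases called among shERWOOD hairpins ranged over 9 to 11 for Slpi hairpins and 1 to 11 for Mgp hairpins. Correlations of same-numbered deviations ran from −0.526 to 0.550 for Slpi and from −0.167 to 0.285 for Mgp libraries. They exceeded 0.1 in 3 of 10 pairs of hairpins for Slpi and 4 of 10 for Mgp. Whether library numbers pair the libraries is therefore not settled, and the main fits did not use them. With a replicate block, 13 cytosolic genes fell and 2 rose, and 3 mitochondrial genes rose and 3 fell in 66708, with 5199 calls in all; in 88943, 10 cytosolic genes rose and 8 fell, and 1 mitochondrial gene rose and 5 fell, with 6595 calls in all. Among shERWOOD hairpins the replicate block gave 10 synthetases (Slpi), against 11 without it, and 7 (Mgp). It changed no call of a synthetase in the TRC contrasts. Having 2 libraries per line limits the precision of weak mitochondrial genes, 3 of which lay under the minimum.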
